A study of Saccharomyces cerevisiae with 6 samples.

Results

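The DNA damage checkpoint and repair genes of budding yeast (Saccharomyces cerevisiae) were compared between cells with wild-type histone H3 and cells with a mutant H3. The members are 31 genes, each measured by the brightest probe set that the platform annotation assigns to that gene alone, out of 5656 genes with such a probe set. They were chosen by function and fall into 10 checkpoint genes, 13 repair genes and 8 genes known to be induced by damage or stress. In the mutant, the lysines at positions 4, 36 and 79 of H3 were replaced by arginine (K4,36,79R). Both groups, with 3 arrays each from replicate cultures, grew in selective galactose medium and were then moved to selective glucose medium for 6 h. Per the series design, the move to glucose shuts off wild-type H3, so that the mutant form is meant to be the only H3 left in the mutant cells. How much wild-type H3 protein remained at 6 h is not measured by the arrays. The labels call the other group a wild-type strain and give neither the strain background nor the mating type nor the plasmids, and no DNA-damaging agent is named. The remaining times in the design are not analysed here.

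In yeast, DNA breaks and stalled replication forks are sensed by the kinases Mec1 and Tel1. These act through adaptors, such as Rad9 at breaks, and effector kinases to stop the cell cycle and to raise the supply of deoxynucleotides. Rad9 is known to bind H3 methylated at lysine 79, one of the replaced lysines, through its Tudor domain. Dun1 relays the signal to the nucleotide supply: it leads to the removal of Sml1, an inhibitor of ribonucleotide reductase, and relieves the repressor Rfx1, also called Crt1, whose best known targets are RNR2, RNR3, RNR4 and HUG1. Repair itself is done by separate machines for double-strand breaks, bulky lesions, ultraviolet photoproducts and damaged bases.

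Values are scaled signals, that is, MAS5 probe set intensities after each array was brought to a trimmed mean of 500. Differences are mutant minus wild type on the scale log2(scaled signal + 16), and a gene was called when its adjusted p in limma, over the 6808 probe sets whose scaled signal averaged 50 or more, was under 0.05. Over all probe sets tested 61 were called higher and 92 lower, and on the intensities as deposited, where the mutant arrays carry factors of 0.888, 0.868 and 0.767, these counts were 31 and 370 and the median difference went from 0.02 to -0.22. One probe set shared by the H3 genes HHT1 and HHT2 fell by 1.57 (limma adjusted p = 0.0013), while the brighter one differed by -0.11 (limma adjusted p = 0.648). Another lay below the filter, with means of 8.88 in the wild type and 18.6 in the mutant. Which of these genes each probe set reads was not tested, so no level of H3 RNA is drawn from them. The pairwise correlation of arrays was 0.985 to 0.989 within the wild type and 0.964 to 0.983 within the mutant. The cell type cannot be checked against a label, but 6 markers of a cells had means of 74.6 to 3888 in the wild type and 70.0 to 3578 in the mutant, and 4 markers of alpha cells 57.2 to 175.1 and 47.9 to 256. Limma called 0 of these 10. All 6 a markers had a lower mean in the mutant, 3 of them at an unadjusted p under 0.05 (MFA1 -0.44, BAR1 -0.54 and STE6 -0.64). Over all probe sets tested, 8.92% were lower at that threshold. The alpha marker SAG1 was higher by 0.51 with no overlap (limma adjusted p = 0.101), and the other 3 alpha markers had lower means. Their part in the differences of the repair and checkpoint genes was not tested. No library was left out.

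Of the 31 members, 28 passed the signal filter and 1 was called higher in the mutant, TEL1, and 0 lower. Over all probe sets tested, 0.896% were called higher and 1.35% lower. At an unadjusted p under 0.05, limma gave 8 members higher and 2 lower, against 10.7% and 8.92% of all probe sets tested. The 3 mutant values all lay above the 3 wild-type values for 9 members and all below them for 2, where the same held for 14.3% and 11.5% of all probe sets tested. The 28 differences ran from -0.49 to 0.94 with a median of 0.15, beside a median of 0.02 over all probe sets tested. On the deposited intensities the median of the members was -0.08, again above that of all probe sets, which was -0.22. The same shift brought MEC1 to 0.23, RFX1 to 0.18, XRS2 to 0.18, RAD16 to 0.37, RAD54 to 0.12, RAD2 to 0.13, DUN1 to 0.04 and RAD52 to 0.03, while TEL1 was called at 0.70 (limma adjusted p = 0.0305). It made the negative differences larger, with RNR4 at -0.57 (limma adjusted p = 0.0772), RAD23 at -0.55, SML1 at -0.41, RAD7 at -0.36, MRE11 and RAD57 at -0.37, DDR48 at -0.34, RNR3 at -0.29, MAG1 at -0.27 and PHR1 at -0.68 (limma adjusted p = 0.0615). The members were spread over all 3 groups: among the tested genes 8 of 9 checkpoint genes, 6 of 12 repair genes and 4 of 7 induced genes had a higher mean in the mutant, with medians of 0.17, 0.10 and 0.14. Over all probe sets tested, 52.5% had a higher mean in the mutant. On the deposited intensities these counts were 4 of 9, 6 of 12 and 2 of 7, beside 21.5% of all probe sets tested.

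**Figure D1:**
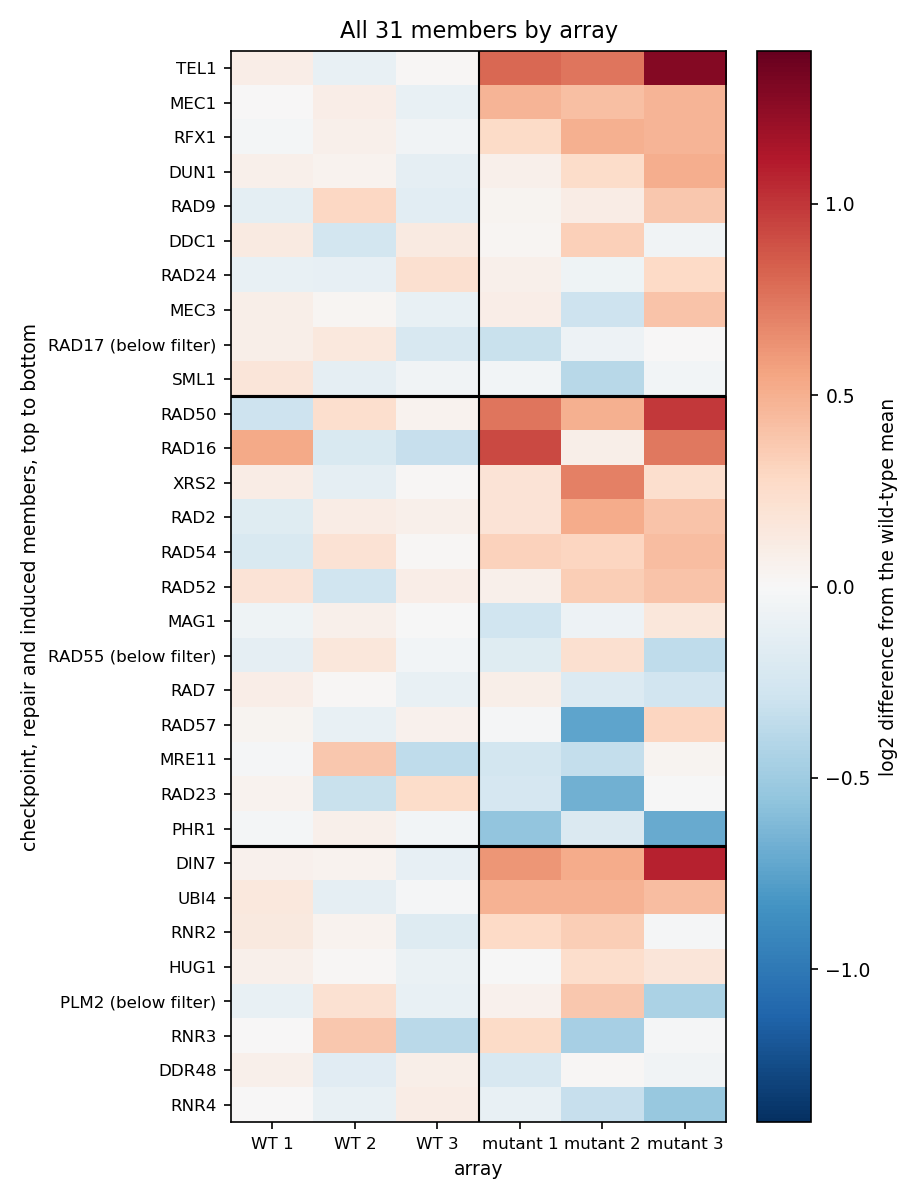
Heat map of all 31 members (rows, in the order checkpoint, repair and induced genes, each sorted by difference) on the 6 arrays (columns). Colour gives the difference from the wild-type mean on the log2(scaled signal + 16) scale, red above and blue below. TEL1, MEC1, RAD50, DIN7 and UBI4 are among the members above the wild-type mean on all 3 mutant arrays, and PHR1 and RNR4 among those below it.

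The mutant arrays also differed among themselves. On mutant replicate 3, 18 of the 28 tested members lay above every wild-type value and 3 below every one, where the shares of all probe sets tested were 41.8% and 31.4%. On mutant replicate 2 the counts were 14 and 9, beside 37.7% and 32.9%, and on mutant replicate 1 they were 12 and 4, beside 30.2% and 31.3%. The order of the 3 arrays in values above the wild type was thus the same over all probe sets as over the members. The median SD within a group, on the log2 scale, was 0.14 for the wild type and 0.20 for the mutant over the members, and 0.13 and 0.20 over all probe sets tested.

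Among the checkpoint genes, the kinase gene TEL1 rose. Its protein, a large kinase known for sensing double-strand breaks and for keeping telomere length, shares part of its role with Mec1. TEL1 had scaled signals of 191, 164 and 179.7 in the wild-type arrays and 321, 309 and 456 in the mutant arrays. All mutant values lay above all wild-type values, with mutant replicate 3 the highest. The mean went from 178 ± 13.5 to 362 ± 81.2 (SD, n = 3), which is 203% of the wild-type mean. The difference was 0.94 (SE 0.17, 95% interval 0.56 to 1.33, limma adjusted p = 0.0247). By size of rise TEL1 stood at place 15 of the 5178 genes tested. The direction held without each array in turn, with differences of 0.77 to 1.04, but the limma call was lost without wild-type replicate 1 (adjusted p = 0.0659), wild-type replicate 2 (0.0890), wild-type replicate 3 (0.0853), mutant replicate 1 (0.0776) or mutant replicate 3 (0.0508), and with no signal filter (0.0508).

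MEC1 encodes the other sensor kinase, which responds to single-stranded DNA and is essential for growth. It had 128, 137 and 117 on the wild-type arrays and 183, 175 and 184 on the mutant arrays, so the groups did not overlap and the mutant arrays lay close together. The difference of 0.46 (SE 0.14, 95% interval 0.15 to 0.76) was not called (limma adjusted p = 0.117). Of its 8 other probe sets, 3 passed the filter and differed by 0.09, -0.13 and 0.33 with overlapping groups and no call, so the brightest probe set shows a larger difference than the rest. RAD9, which encodes an adaptor, had 114, 159 and 113 on the wild-type arrays against 132, 138 and 170.0 on the mutant arrays. These groups overlapped, and the 95% interval of the difference of 0.17 ran from -0.22 to 0.56.

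The checkpoint clamp, a ring of Ddc1, Mec3 and Rad17, and Rad24, which loads it onto DNA, showed no called difference. DDC1 had 102, 74.3 and 102 on the wild-type arrays and 94.1, 120.5 and 88.4 on the mutant arrays. For MEC3 the values were 79.6, 75.9 and 67.8 on the wild-type arrays against 80.4, 57.8 and 103 on the mutant arrays. RAD24 gave 117, 116 and 151 on the wild-type arrays against 134, 122 and 158 on the mutant arrays. All 3 genes overlapped between the groups, and their differences of 0.11, 0.07 and 0.10 turned negative on the deposited intensities (-0.11, -0.14 and -0.13), as did that of RAD9 (-0.05). RAD17, the remaining clamp gene, lay below the filter with 38.0, 40.4 and 27.5 on the wild-type arrays and 25.0, 32.3 and 35.1 on the mutant arrays, and was not tested.

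The members that link the checkpoint to nucleotide supply were DUN1, RFX1 and SML1. DUN1, the effector kinase gene, had 193, 189 and 166 on the wild-type arrays and 192, 221 and 267 on the mutant arrays. The lowest mutant value lay inside the wild-type range, and the difference of 0.28 (95% interval -0.07 to 0.63) was not called (limma adjusted p = 0.361) and was 0.16 without mutant replicate 3. RFX1, the repressor gene, had 145, 157 and 143 on the wild-type arrays against 183, 215 and 213 on the mutant arrays. Its groups did not overlap, yet the difference of 0.42 (SE 0.14) was not called (limma adjusted p = 0.147). SML1, which encodes the reductase inhibitor, was at 4749, 3877 and 4077 on the wild-type arrays and 4103, 3210.0 and 4099 on the mutant arrays, with overlapping groups and a difference of -0.16 (95% interval -0.46 to 0.15). Removal of Sml1 after damage is known to act on the protein, which the arrays do not measure.

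**Figure D2:**
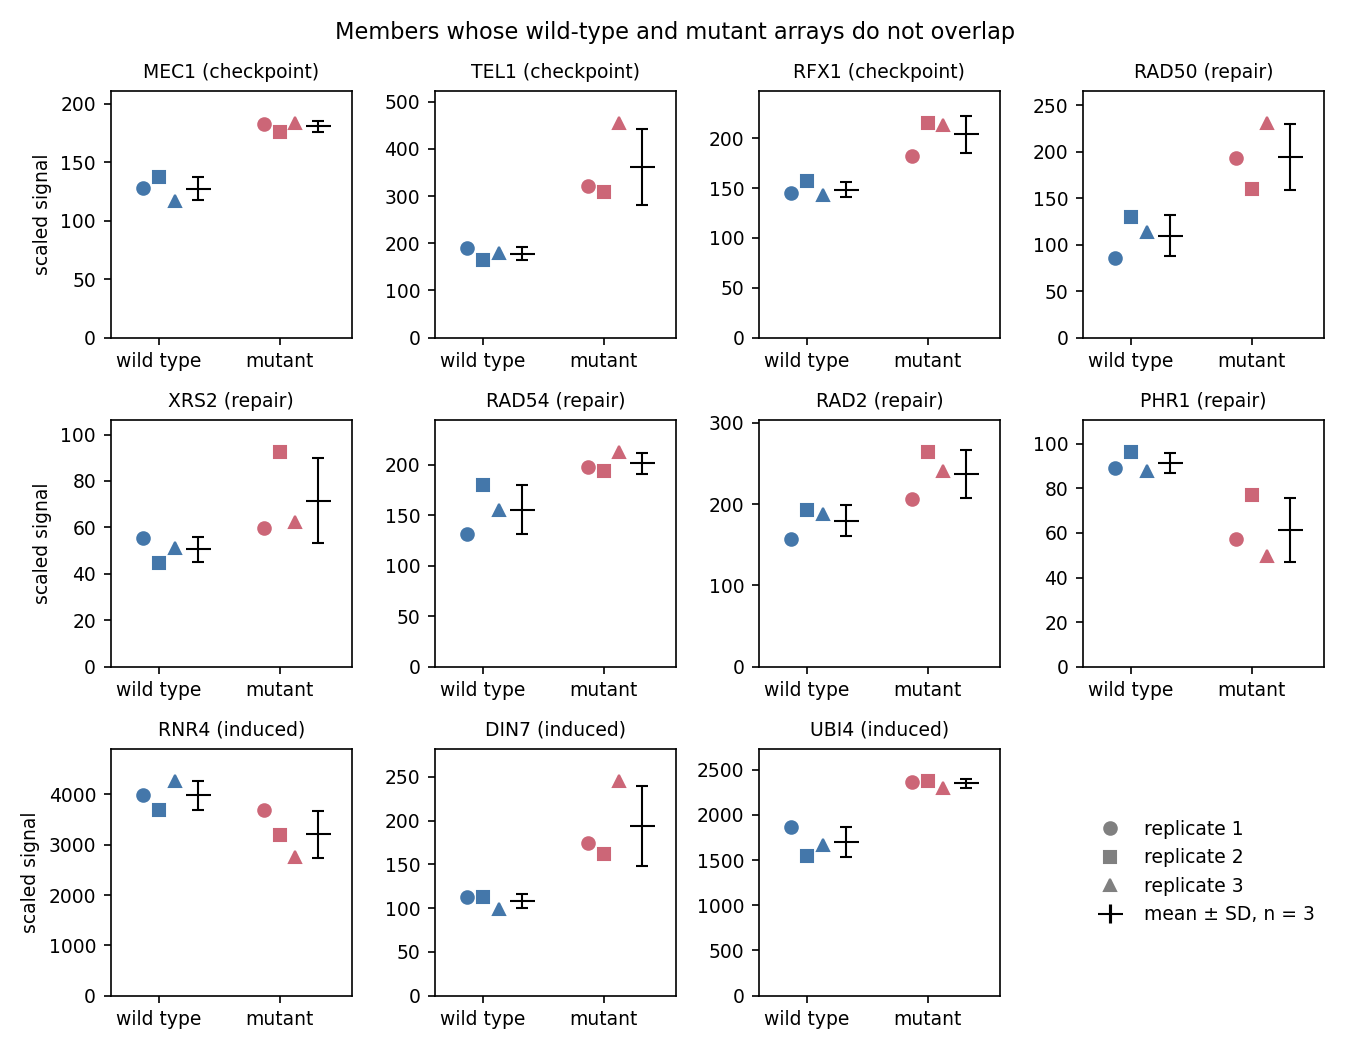
Scaled signal (vertical axis, linear from 0, its own range in each panel) on the 3 wild-type arrays (blue) and the 3 mutant arrays (red) for the 11 tested members whose groups did not overlap. Marker shape gives the replicate number and the black bar the mean ± SD (n = 3); 9 genes are higher in the mutant, and PHR1 and RNR4 are lower.

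No repair gene was called by limma in either direction. At an unadjusted p under 0.05, 3 of the 12 tested were higher and 1 lower, beside 10.7% and 8.92% of all probe sets tested. The largest difference among them was that of RAD50, whose protein forms, with Mre11 and Xrs2, the complex that first holds and trims broken ends and that recruits Tel1. RAD50 had 86.1, 130.0 and 113 on the wild-type arrays and 193, 159.7 and 231 on the mutant arrays. Every mutant value lay above every wild-type value, and the mean went from 109.7 ± 22.2 to 194 ± 35.7 (SD, n = 3), which is 177% of the wild-type mean. The difference of 0.75 (SE 0.19, 95% interval 0.33 to 1.16) missed the threshold (limma adjusted p = 0.0764). Without mutant replicate 2 it was called (limma adjusted p = 0.0387). Its 5 other probe sets all lay below the filter, with means of 9.49 to 24.2.

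Its partners in the complex had smaller differences. XRS2, the subunit that carries the complex into the nucleus, had 55.3, 44.8 and 51.3 on the wild-type arrays and 59.8, 92.6 and 62.2 on the mutant arrays, with no overlap and mutant replicate 2 the highest (difference 0.38, limma adjusted p = 0.298, and 0.21 without mutant replicate 2). MRE11, the nuclease subunit, had 61.0, 84.8 and 44.8 on the wild-type arrays against 49.3, 45.7 and 64.2 on the mutant arrays, which overlapped (difference -0.18, 95% interval -0.66 to 0.30). Since the subunits work as a complex, their log2 ratio was taken within each array, a comparison chosen after their values were seen. The ratio of RAD50 to MRE11 was 0.41, 0.53 and 1.09 on the wild-type arrays and 1.68, 1.51 and 1.62 on the mutant arrays. It was higher in all 3 mutant arrays, by 0.93, with an exact two-sided permutation p = 0.1, the smallest that 3 against 3 arrays allow (0.3 after Benjamini-Hochberg adjustment over 6 such ratios). This ratio combines the differences of RAD50 and MRE11 given above and is no separate support for them. The ratios of RAD50 to XRS2 and of XRS2 to MRE11 overlapped between the groups, with differences of 0.37 (exact permutation p = 0.4, adjusted 0.48) and 0.56 (exact permutation p = 0.2, adjusted 0.3).

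Homologous recombination, which copies the intact sister or homologue into the break, was represented by RAD52, RAD54, RAD55 and RAD57. RAD52, the mediator that places the strand-exchange protein on DNA, had 463, 329 and 433 on the wild-type arrays and 424, 518 and 540.0 on the mutant arrays, with overlapping groups and a difference of 0.27 (95% interval -0.10 to 0.64, and 0.13 without wild-type replicate 2). RAD54, a motor protein of strand invasion, had 131, 179.6 and 155 on the wild-type arrays against 197, 194 and 213 on the mutant arrays. Its mutant values lay above all wild-type values, by a difference of 0.35 (SE 0.15) that was not called (limma adjusted p = 0.240). RAD55 and RAD57 encode a pair that works as a heterodimer. RAD57 was at 136, 123 and 139 on the wild-type arrays against 131, 72.8 and 167 on the mutant arrays, spreading to both sides of the wild type, with mutant replicate 2 the lowest and mutant replicate 3 the highest of all arrays. Its difference of -0.15 changed sign without mutant replicate 2 (0.14). RAD55 lay below the filter, at 27.9, 37.5 and 30.7 on the wild-type arrays and 26.6, 40.0 and 21.4 on the mutant arrays.

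Nucleotide excision repair, which cuts out a stretch of strand around a bulky lesion, gave differences of both signs. RAD2, the nuclease that cuts on the downstream side, had 158, 193 and 188 on the wild-type arrays and 206, 264 and 240.3 on the mutant arrays. These groups did not overlap (difference 0.37, SE 0.15, limma adjusted p = 0.223). RAD7 and RAD16 encode a complex that repairs DNA outside transcribed strands. RAD16 had 84.0, 44.0 and 39.6 on the wild-type arrays against 115, 57.4 and 99.8 on the mutant arrays, a wide spread in both groups with overlap (difference 0.58, 95% interval -0.04 to 1.20). RAD7 had 398, 377 and 346 on the wild-type arrays against 397, 326 and 308 on the mutant arrays, also with overlap (difference -0.12, 95% interval -0.45 to 0.20). The log2 ratio of RAD16 to RAD7 differed by 0.70 between the groups, with overlapping arrays (exact two-sided permutation p = 0.2, adjusted 0.3). RAD23, which helps to recognise lesions and links repair to the proteasome, had 1104, 855 and 1278 on the wild-type arrays against 905, 664 and 1057 on the mutant arrays, and its difference of -0.30 was within the spread of the arrays (limma adjusted p = 0.438) and was -0.12 without mutant replicate 2.

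PHR1, the photolyase gene, whose enzyme reverses ultraviolet photoproducts with the help of light, was the repair gene with the lowest difference. Its scaled signal was 89.3, 96.5 and 88.0 on the wild-type arrays and 57.3, 77.2 and 49.7 on the mutant arrays. All mutant values lay below all wild-type values, and the mean went from 91.3 ± 4.55 to 61.4 ± 14.2 (SD, n = 3). The difference was -0.49 (SE 0.17, 95% interval -0.87 to -0.10) and was not called (limma adjusted p = 0.169). As background, PHR1 is known to be repressed by Rph1, a demethylase of lysine 36 of H3. MAG1 encodes a glycosylase that removes alkylated bases. It had 73.1, 81.5 and 76.7 on the wild-type arrays against 61.0, 72.4 and 88.0 on the mutant arrays, with the mutant values on both sides of the wild type, and a difference of -0.06.

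**Figure D3:**
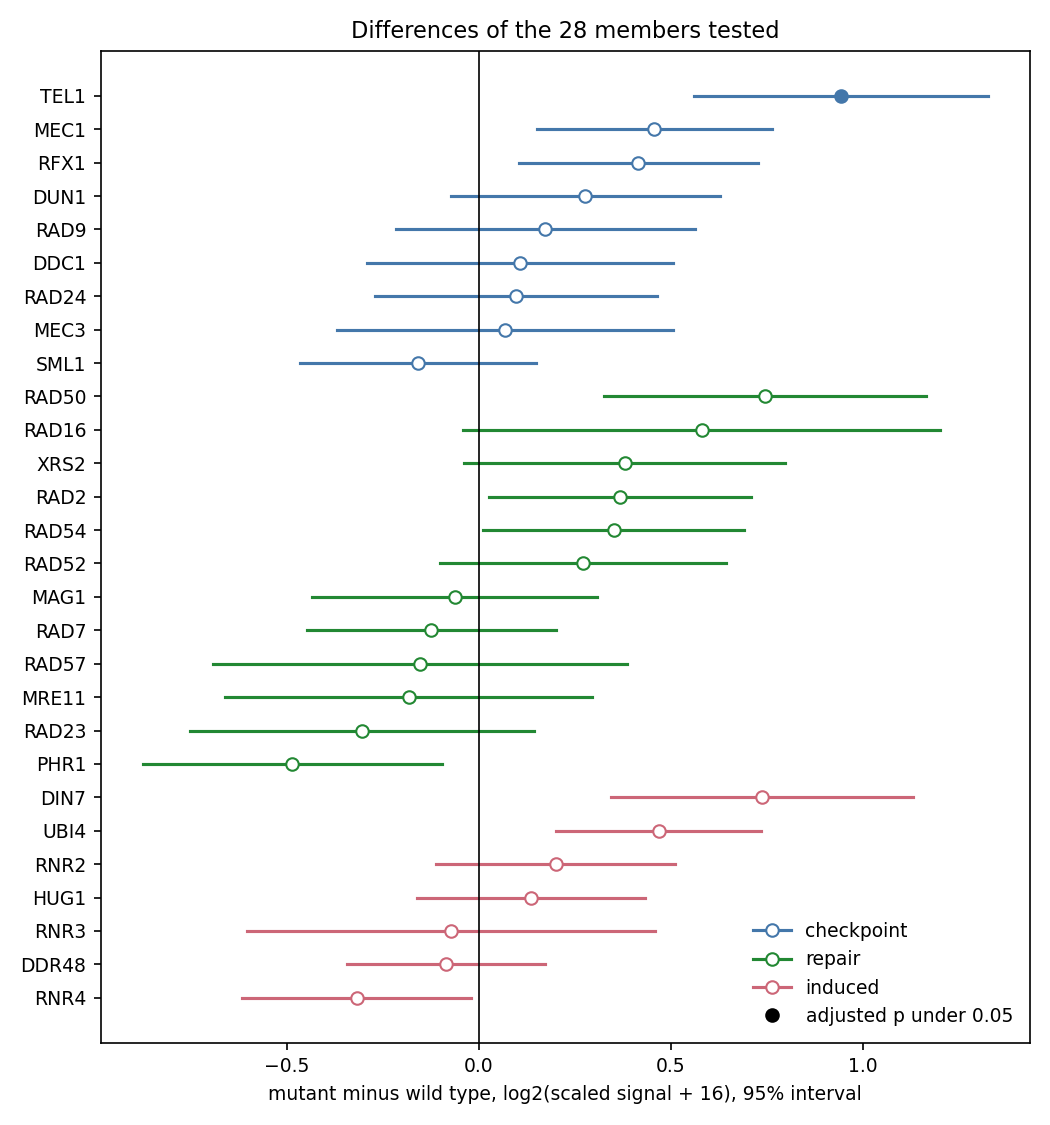
Mutant minus wild type on the log2(scaled signal + 16) scale (horizontal axis) for the 28 tested members (vertical axis), with 95% intervals from limma, coloured by group. Only the filled point, TEL1 at 0.94, has an adjusted p under 0.05; the intervals of MEC1, RFX1, RAD50, RAD2, RAD54, DIN7 and UBI4 also lie above 0, and those of PHR1 and RNR4 below it.

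None of the 7 damage-induced genes tested was called by limma. At an unadjusted p under 0.05 there were 2 higher and 1 lower, beside 10.7% and 8.92% of all probe sets tested. RNR2 and RNR4 encode the partners of the small subunit of ribonucleotide reductase. RNR2 had 3186, 2990.4 and 2549.8 on the wild-type arrays and 3523, 3669 and 2855 on the mutant arrays, which overlapped (difference 0.20, 95% interval -0.11 to 0.51, and -0.05 on the deposited intensities). RNR4 was at 3988, 3691 and 4273 on the wild-type arrays against 3688, 3189 and 2755 on the mutant arrays. Each mutant value of RNR4 lay below every wild-type value, though mutant replicate 1 only just did (difference -0.32, SE 0.13, limma adjusted p = 0.227). Both genes are known targets of Rfx1, and after scaling their means differed in opposite directions. On the deposited intensities both were lower in the mutant, RNR2 by -0.05 and RNR4 by -0.57. The log2 ratio of RNR2 to RNR4 was -0.32, -0.30 and -0.74 on the wild-type arrays and -0.07, 0.20 and 0.05 on the mutant arrays, higher in all 3 mutant arrays by 0.52. The exact two-sided permutation p was 0.1, the smallest possible here, and 0.3 after adjustment over the 6 ratios. All 6 ratios were taken after the values were seen. Each of them, that of RNR2 to RNR4 included, combines the differences of its 2 genes and is no separate support for them. The ratio of the clamp genes DDC1 and MEC3, taken the same way, differed by 0.04 (exact permutation p = 1, adjusted 1).

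RNR3 and HUG1 are the classical reporters of the pathway, since both are tightly repressed until DNA is damaged. RNR3, the alternative large subunit, had 145, 193 and 107 on the wild-type arrays and 178, 100.3 and 143 on the mutant arrays. The ranges overlapped broadly, and the 95% interval of the difference of -0.07 ran from -0.60 to 0.46. HUG1, which encodes a small inhibitor of the reductase, had 563, 541 and 498 on the wild-type arrays against 531, 634 and 604 on the mutant arrays. Here too the groups overlapped, with an interval of -0.16 to 0.43 around 0.14, so that a rise of more than about 0.43 on this scale lay outside the interval. On the deposited intensities the difference of HUG1 was -0.11.

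DIN7 and UBI4 had the largest differences of the induced group. DIN7, a nuclease of mitochondrial DNA, had 113, 113 and 98.9 on the wild-type arrays and 175, 161 and 246 on the mutant arrays. The groups did not overlap, and mutant replicate 3 was the highest, as for TEL1 and RAD50. The mean went from 108 ± 8.04 to 194 ± 45.2 (SD, n = 3), and the difference was 0.74 (SE 0.18, 95% interval 0.35 to 1.13, limma adjusted p = 0.0642). It was called by limma with quantile normalization (adjusted p = 0.0462), with equal medians (0.0496) and without mutant replicate 2 (0.0368). UBI4, the polyubiquitin gene, which is needed under stress, had 1871, 1545 and 1671 on the wild-type arrays and 2368, 2377 and 2294 on the mutant arrays. The mean went from 1695 ± 164 to 2346 ± 45.5 (SD, n = 3), with all mutant values above the wild type, and the difference of 0.47 (SE 0.12) missed the threshold (limma adjusted p = 0.0792). That of UBI4 was 0.22 on the deposited intensities.

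DDR48, a stress and damage gene, had 8029.9, 6850.3 and 8056 on the wild-type arrays and 6506, 7721 and 7379.5 on the mutant arrays, with overlap and a difference of -0.09 (95% interval -0.34 to 0.17). Its other probe set differed by -0.11. PLM2, which encodes a putative transcription factor of the G1 to S step, lay below the filter at 23.0, 32.7 and 23.0 on the wild-type arrays against 27.9, 38.4 and 14.9 on the mutant arrays.

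Stress and the cell cycle are known to set the level of several members, so lists of such genes are given beside them. These cultures were measured in bulk, and a larger share of cells in one stage cannot be told apart from more RNA per cell. Of 21 general stress genes tested, 0 were called by limma in either direction. At an unadjusted p under 0.05, 1 was higher, HSP78, with a difference of 0.70 (limma adjusted p = 0.066), and their median was -0.07 while UBI4 stood at 0.47 and DDR48 at -0.09. The groups of arrays stood apart downward for 5 of these 21 genes (23.8%) and upward for 1 (4.76%). The shares of all probe sets tested were 11.5% and 14.3%. Of 22 genes of the G1 to S step and of replication, 0 were called by limma, with a median of 0.05. Of these, 4 stood apart downward (18.2%) and 2 upward (9.09%). At an unadjusted p under 0.05, POL2, a DNA polymerase gene, was higher (0.42) and CLB6, an S phase cyclin gene, lower (-0.42). At that threshold 10.7% of all probe sets tested were higher and 8.92% lower. Their part in the differences of the members was not tested.

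A further 95 genes of checkpoint, nucleotide supply, repair and damage tolerance, chosen by function, were examined for the same comparison. Of the 86 that passed the filter, 0 were called higher and 1 lower by limma. At an unadjusted p under 0.05 these counts were 10 and 6, beside 10.7% and 8.92% of all probe sets tested. The gene that fell was UBC13, which encodes a ubiquitin-conjugating enzyme of error-free damage tolerance. UBC13 had 1759, 1523 and 1759 on the wild-type arrays and 993, 1171 and 1101 on the mutant arrays, so the groups did not overlap. It fell by 0.62 to 64.8% of the wild-type mean (limma adjusted p = 0.0404, SE 0.13). The limma call was lost without wild-type replicate 1 (adjusted p = 0.179), wild-type replicate 2 (0.0745), wild-type replicate 3 (0.182), mutant replicate 1 (0.105) or mutant replicate 3 (0.0861), with no filter (0.0577) and with no intensity trend (0.0547). MMS2, whose product is the partner of Ubc13, had 716, 704 and 760.0 on the wild-type arrays against 814, 899.5 and 899 on the mutant arrays, in the opposite direction, with a difference of 0.26 (limma adjusted p = 0.287).

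By pathway, medians of these further genes were -0.03 over 16 checkpoint genes, -0.21 over 9 genes of nucleotide supply, 0.14 over 16 of recombination and 0.09 over 12 of nucleotide excision repair. They were 0.09 over 10 genes of base repair, -0.03 over 6 of mismatch repair, 0.24 over 4 of end joining and 0.19 over 13 of damage tolerance. Groups of arrays stood apart upward for 13 of the 86 genes and downward for 8, a share of 15.1% and 9.30% beside 14.3% and 11.5% of all probe sets tested. RNR1, the main large subunit of the reductase, had 1723, 1722 and 1821 on the wild-type arrays and 1374, 1349 and 1431 on the mutant arrays, all lower than the wild type (difference -0.34, limma adjusted p = 0.145). RNR1 was 1 of 3 among the 9 genes of nucleotide supply that stood apart downward (33.3%), and 0 stood apart upward. RAD53, the main effector kinase gene, had means of 67.3 ± 12.3 and 85.5 ± 9.76 (SD, n = 3), with overlap (difference 0.29, limma adjusted p = 0.376).

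Gene length moved with the differences. TEL1 with 8364 bases and MEC1 with 7107 are the longest members, and RAD50, RAD9 and RAD2 also exceed 3000. All 5 had a higher mean in the mutant, with a median of 0.46, where the 464 tested genes of that length had a median of 0.11. That median is the value of MEC1, whose 3 other tested probe sets differed by 0.09, -0.13 and 0.33. On the deposited intensities RAD9 had -0.05. By difference before any removal of the trend, TEL1 stood at place 2 among those 464, RAD50 at 10, MEC1 at 61, RAD2 at 97 and RAD9 at 194. For members of 2000 to 3000 bases the median was 0.37 over 6 genes, beside 0.09 for 750 genes. For those of 1000 to 2000 it was 0.08 over 14 genes, beside 0.03, and for the 3 shortest -0.06 beside -0.01. The length trend of each array was then removed, an alternative added after the data were seen. TEL1 kept its limma call at a difference of 0.83 (adjusted p = 0.0461), MEC1 had 0.35, RAD50 had 0.65, and the median of the 5 longest members was 0.35 beside 0.01 for all genes of that length. DIN7 and UBI4, which are shorter, had 0.73 and 0.47 after the removal. What ties length to the difference was not tested.

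**Figure D4:**
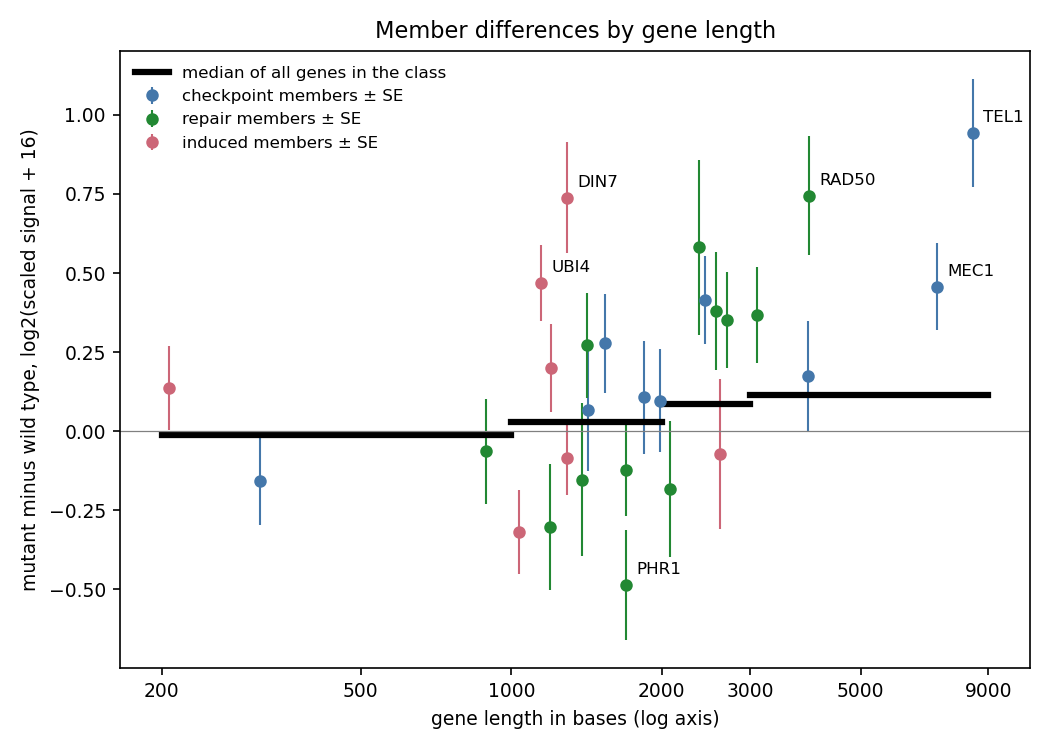
Difference on the log2(scaled signal + 16) scale (vertical axis) against gene length in bases (horizontal log axis) for the 28 tested members, with bars of 1 SE, coloured by group. Black bars give the median of all tested genes of up to 1000, 1000 to 2000, 2000 to 3000 and over 3000 bases, which is -0.01, 0.03, 0.09 and 0.11; the 5 longest members lie above it.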

How the data were processed

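The values are MAS5 intensities on a linear scale, as the authors deposited them, per the submitters' processing notes, which name no version. Each of 9335 probe sets had a value on all 6 arrays, and 60 control probe sets were left out. The wild-type arrays shared a trimmed mean, while the mutant arrays carried a further factor below 1, which scaling every array to a 2% trimmed mean of 500 removes. Groups and replicate numbers came from the titles. The test was limma 3.58.1 (R 4.3.3; lmFit, eBayes with an intensity trend) on log2(signal + 16), and p-values were adjusted by the Benjamini-Hochberg method over 6808 probe sets. This scale understates changes of dim probe sets. The number of arrays limits precision: the median SE was 0.16.

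Genes were named through the platform annotation (6504 single-gene probe sets) and lengths taken from a gene table of assembly R64. Members and lists were chosen with earlier results of these data known. Every member is described; of the further genes, those with an adjusted p under 0.05 are named, and HSP78, POL2, CLB6, MMS2, RNR1, RAD53, RTT101 and DNA2 after their values were seen. Of 98 further genes listed, 3 were not analysed here. On data simulated for this comparison with 200 changed among 6808 probe sets, 25.0% of changes of 0.5, 93.9% of changes of 1 and 100% of changes of 2 were recovered. The labels name no culture shared by same-numbered arrays, so the replicate number was not used as a block in the main fit. The deviations of same-numbered arrays correlated weakly (r = 0.13, 0.16 and 0.04), beside -0.13 to 0.05 for the other pairs. With the block, TEL1 had a limma adjusted p of 0.0131. Alternatives were 3 other scalings, 2 offsets, 2 filters, no trend, the block, the mean of a gene's probe sets and leaving out each array.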

Additional observations from a re-analysis of the deposited data

How the results depend on the processing

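Over all probe sets, 61 called higher and 92 lower became 31 and 370 on the deposited intensities, 33 and 54 with no filter, and 108 and 147 with the replicate number as a block. They were 36 and 60 with the length trend removed, and 57 were lower with a filter at 200. Leaving out 1 array gave 13 to 124 higher and 23 to 140 lower. The count of members called higher, 1, became 2 with quantile normalization or equal medians, 0 with no filter and 0 to 3 without 1 array; the 3 came without mutant replicate 2. Without each of the other 5 arrays it was 0. No member was called lower under any alternative run. Among the further pathway genes 1 was higher with no intensity trend and 0 to 1 without 1 array; the lower count of 1 became 4 on the deposited intensities, 0 with no filter or no trend, and 0 to 1 without 1 array. With the block, 1 stress or S phase gene was called higher.

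Over 458 repeats of the 28 member differences, 444 kept their sign and 14 turned. Many of these signs could not turn, so the count overstates how stable they are. Another filter, no intensity trend and the block leave a difference as it was. So does the mean over probe sets for a gene with 1 probe set. On the deposited intensities RAD9 (-0.053), DDC1 (-0.11), MEC3 (-0.14), RAD24 (-0.13), RNR2 (-0.051) and HUG1 (-0.11) turned. Leaving out 1 array gave a range across 0 for DDC1 (-0.022 to 0.18), MEC3 (-0.099 to 0.25), MRE11 (-0.36 to 0.0035), RNR3 (-0.26 to 0.13), RAD57 (-0.38 to 0.14) and MAG1 (-0.17 to 0.043). Without some 1 array, 17 of the 28 member differences moved by over 1.5 times, and the cause was not tested. This measure is relative to the difference itself. A difference near 0, such as that of MAG1 (-0.06) or MEC3 (0.07), thus passes it on a small change. The share over all probe sets was not computed. The replicate block changed no call of a member, and 5 of 6 arrays correlated best with their own number. Dim signal limited RAD17, RAD55 and PLM2, the filter at 200 left 12 members, and the mean over all probe sets of a gene left MEC1 and RAD50 below the filter.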

Other observations

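Among the further pathway genes, RTT101 and DNA2 had the smallest limma p after UBC13, and they were chosen after their values were seen. RTT101, a scaffold of a ubiquitin ligase that acts at damaged forks, had 78.0, 85.6 and 94.5 on the wild-type arrays and 132, 142 and 147 on the mutant arrays, with no overlap (difference 0.62, limma adjusted p = 0.0626). DNA2, a nuclease and helicase that trims broken ends and replication flaps, had 174, 219 and 206 on the wild-type arrays against 273, 344 and 287 on the mutant arrays, also with no overlap (difference 0.56, limma adjusted p = 0.0947). Neither was called.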
